A study of Mus musculus with 9 samples.

Results

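Smooth muscle contractile genes, 10 in number, were followed across the fetal and newborn mouse urogenital sinus: Acta2, Actg2, Cnn1, Myh11, Tagln, Smtn, Lmod1, Des, Synm and Myocd. A probe set, the group of array probes that reports 1 transcript, belonged to these genes where the platform annotation gave it 1 of the 10 symbols and no other. By that rule 16 probe sets of the 45101 on the array, standing for 10 of the 18194 genes with a probe set of their own, were members, and all 16 were among the 26999 that were bright enough to be tested. The array carried 3 probe sets for Acta2, 2 each for Myh11, Des, Synm and Myocd, and 1 each for the other 5 genes.

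Smooth muscle cells contract when myosin filaments pull on actin filaments that are anchored to dense bodies and to the cell membrane, where the intermediate filaments desmin and synemin link the contractile units together. Most of the genes for this machinery are switched on together by serum response factor, which binds a short DNA element called the CArG box, and by its coactivator myocardin. In the urogenital sinus, smooth muscle differentiates in the mesenchyme around the epithelial tube, and layers of it later surround the prostatic ducts and the urethra.

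The urogenital sinus is the embryonic cavity from which the prostate and parts of the bladder neck, urethra and vagina form. Dams of the C57BL/6 strain were given bisphenol A (BPA, a plastics monomer that binds estrogen receptors weakly) at 20 µg/kg/day, diethylstilbestrol (DES, a potent synthetic estrogen) at 0.2 µg/kg/day, or a vehicle control, between embryonic days 13 and 16. Per the labels' protocols the carrier was corn oil stripped of tocopherol, and tracts of both sexes had their bladder, urethra and the Wolffian and Mullerian duct derivatives dissected off. Each agent has 3 arrays, 1 from embryonic day 17 (E17), 1 from embryonic day 18 (E18) and 1 from the day of birth (P0), so 9 arrays in all; the number of animals and litters behind an array, and their sexes, are not in the labels. An agent's arrays at the other ages were therefore its only repeats, and the p-values below measure no more than the scatter among these 9 arrays, which may be technical.

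Values are array signals after quantile normalisation, which gives all 9 arrays the same distribution; differences are in log2 units with the standard error (SE) of a limma model that holds agent and age as factors. Before normalisation the mean signal, trimmed by 2% at each end, was 157 on the BPA P0 array and between 235 and 277 on the other 8. Of the urogenital sinus markers, 7 of 7 were bright enough to be tested, and their summed signal lay between 6742 and 8438 on every array, with Shh, which encodes the hedgehog signal of the sinus epithelium, between 1136 and 1949. Fgf10, a growth factor of the sinus mesenchyme, was dim, at 32.9 to 69.1. Genes of other tissues stood out on some BPA arrays: summed epidermis markers read 2031, 8800 and 22568 on the BPA arrays at E17, E18 and P0, against 1374 to 2637 on the 6 DES and Control arrays. Summed gonad markers read 3778 on the BPA P0 array and 603 to 700 on the other 8, and summed red cell markers 2429 on the BPA E18 array and 438 to 1407 on the other 8.

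The shape shared by most members was a drop in signal between E17 and E18 in Control tissue that was smaller or absent in BPA and DES tissue. At E17 the BPA and Control signals were closer than later for most members, and at E18 and P0 the BPA signals were mostly the higher, with DES in between. No member probe set passed the test in any comparison, so these are descriptions of the 9 arrays. In bulk tissue such as this, fewer smooth muscle cells and less RNA per cell cannot be told apart.

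**Figure D1:**
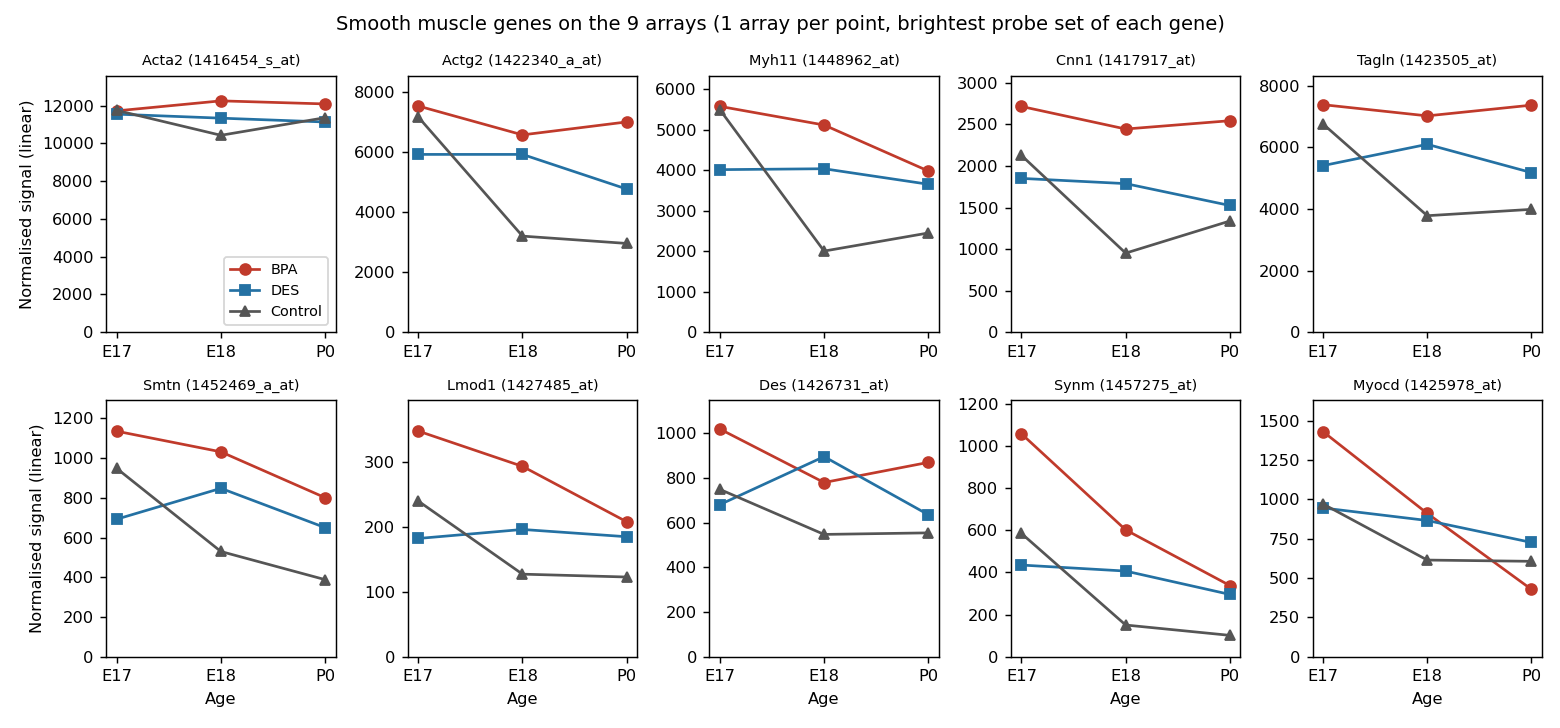
Normalised signal on a linear axis against age for the brightest probe set of each of the 10 genes, 1 point per array, with BPA in red circles, DES in blue squares and Control in grey triangles. The Control line is lower at E18 than at E17 in each of the 10 panels, as for Actg2 at 3199 at E18, against 7163 at E17, and least so for Acta2, whose points lie together between 10432 and 12257; the Myocd line of BPA ends at 429 at P0, the lowest of its 9 points.

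Acta2, the smooth muscle actin that is the commonest marker of the lineage, hardly varied. Its main probe set, 1416454_s_at, read 11727, 12257 and 12094 on the BPA arrays at E17, E18 and P0, 11552, 11340 and 11137 on the DES arrays, and 11752, 10432 and 11365 on the Control arrays. The BPA arrays overlapped the Control arrays but lay above all 3 DES arrays. BPA minus Control was 0.11 ± 0.05 (adjusted p = 0.676) and DES minus Control 0.02 ± 0.05. This signal stood above 99.9% of the array's probe sets, where array signals are known to flatten, and the part of flattening in its small range was not tested. The other Acta2 probe sets were dim and went their own ways: 1444105_at read 166, 144 and 305 on the BPA arrays, 93.3, 140 and 79.6 on the DES arrays, and 93.7, 64.4 and 192 on the Control arrays. The probe set 1456658_at stayed between 29.9 and 67.5 on all 9 arrays. The actin genes have near-identical coding sequences, so the signal of an actin probe set may include a relative's transcript.

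The start of Acta2 holds elements near in form to the CArG box, and it is set beside that of Synm, the member with the widest range between arrays. Both windows are RefSeq sequence of build GRCm38.p6, run from 250 bases before to 50 bases after the annotated start, and lie on the minus strand, Acta2 at chr19:34255324-34255623 and Synm at chr7:67759693-67759992. Capitals mark CArG-like elements.
Acta2: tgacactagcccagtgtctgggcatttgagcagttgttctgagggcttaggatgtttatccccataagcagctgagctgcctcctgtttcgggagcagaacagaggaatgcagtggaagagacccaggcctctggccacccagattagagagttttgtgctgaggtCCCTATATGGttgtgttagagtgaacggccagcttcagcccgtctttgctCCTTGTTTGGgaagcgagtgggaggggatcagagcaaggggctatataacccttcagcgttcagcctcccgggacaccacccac
Synm: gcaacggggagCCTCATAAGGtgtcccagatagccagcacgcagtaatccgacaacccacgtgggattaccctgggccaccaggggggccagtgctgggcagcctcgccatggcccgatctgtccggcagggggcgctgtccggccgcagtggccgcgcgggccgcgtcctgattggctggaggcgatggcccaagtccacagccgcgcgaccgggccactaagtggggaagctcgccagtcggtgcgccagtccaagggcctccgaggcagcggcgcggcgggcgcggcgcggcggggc
RefSeq start windows were found for 6 of the 10 genes: Acta2, Cnn1, Smtn, Lmod1, Des and Synm. The strict element, CC, 6 bases of A or T, then GG, which reads the same on both strands, was in 0 of the 6, against 1.63% of 32851 windows of all genes. With 1 of the 6 inner bases allowed to be G or C, a form tried after the strict search had given 0, it was in 2 of 6 genes, against 9.98% of all windows. Acta2 held 2 such elements, beginning 84 and 34 bases before the start, which are known elements of this promoter in rodents, and Synm held 1, beginning 239 bases before. The remaining 4 windows held no match, which says only that these letters do not occur there.

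Actg2, the actin of visceral smooth muscle, and Tagln, the actin-binding protein SM22, followed the shared shape closely. Actg2 (1422340_a_at) read 7532, 6570 and 7001 on the BPA arrays, 5920, 5920 and 4766 on the DES arrays, and 7163, 3199 and 2955 in the Control group. Control E17 lay within the BPA range, while Control E18 and P0 lay under every BPA and DES array. The difference was 0.78 ± 0.20 for BPA minus Control (95% interval 0.34 to 1.23, adjusted p = 0.41) and 0.43 ± 0.20 for DES minus Control (interval −0.01 to 0.88, adjusted p = 0.843).

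Tagln (1423505_at) read 7381, 7018 and 7366 on the BPA arrays, 5404, 6095 and 5178 on the DES arrays, and 6754, 3779 and 3985 on the Control arrays. All 3 BPA arrays lay above all Control and all DES arrays. Its BPA minus Control difference was 0.64 ± 0.16 (adjusted p = 0.407), and that of DES minus Control 0.25 ± 0.16 (interval −0.10 to 0.60).

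Cnn1, or calponin, binds actin and restrains the myosin ATPase. Its probe set 1417917_at read 2716, 2444 and 2544 on the BPA arrays, 1850, 1788 and 1524 on the DES arrays, and 2127, 951 and 1338 on the Control arrays. The BPA arrays lay above the other 6 at every age, and Cnn1 was the 1 member higher with BPA than with DES by at least 0.32 log2 units at each of the 3 ages. BPA minus Control was 0.88 ± 0.18 (interval 0.48 to 1.27, adjusted p = 0.329), and BPA minus DES was 0.58 ± 0.18 (adjusted p = 0.662).

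Myh11, the smooth muscle myosin heavy chain a highly specific protein of the lineage, read 5572, 5112 and 3977 on the BPA arrays with probe set 1448962_at, 4010, 4033 and 3650 on the DES arrays, and 5489, 2001 and 2447 on the Control arrays. Its Control E17 signal was as high as that of BPA E17, and its Control E18 signal was the lowest of the 9. The difference was 0.69 ± 0.22 for BPA minus Control (adjusted p = 0.485) and 0.38 ± 0.22 for DES minus Control. The dimmer probe set 1418122_at, between 44.95 and 94.2, gave 0.43 ± 0.22 for BPA minus Control.

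Smtn, smoothelin, a cytoskeletal protein of contractile smooth muscle, read 1135, 1032 and 801 on the BPA arrays, 693, 848 and 650 on the DES arrays, and 948, 530 and 388 on the Control arrays. Lmod1, leiomodin, which seeds actin filaments, read 349, 294 and 209 on the BPA arrays, 183, 197 and 185 on the DES arrays, and 240, 128 and 123 on the Control arrays. In both genes the Control E17 array lay inside the BPA range, the E18 and P0 arrays of the Control group under it. BPA minus Control was 0.75 ± 0.20 for Smtn (adjusted p = 0.421) and 0.81 ± 0.20 for Lmod1 (adjusted p = 0.407).

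Synm, synemin, an intermediate filament protein that joins desmin to the membrane, had the widest range. Probe set 1457275_at read 1057, 602 and 338 on the BPA arrays, 435, 407 and 296 on the DES arrays, and 585, 151 and 102 on the Control arrays. Probe set 1455610_at read 659, 414 and 452 on the BPA arrays, 330, 362 and 237 on the DES arrays, and 375, 146 and 144 on the Control arrays. Both probe sets were higher on the BPA array than on the Control array at each age, and for 1455610_at the groups did not overlap. BPA minus Control was 1.50 ± 0.30 (interval 0.82 to 2.18) and 1.30 ± 0.23 (0.78 to 1.81), each with adjusted p = 0.329. DES minus Control was 0.82 ± 0.30 and 0.60 ± 0.23, each with adjusted p = 0.843. The 1455610_at probe set ranked 16 by p among the 26999 for BPA minus Control, 1457275_at ranked 45 and Cnn1 43.

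Des, desmin, the main intermediate filament of all muscle, read 1019, 780 and 870 on the BPA arrays with probe set 1426731_at, 681, 896 and 636 on the DES arrays, and 749, 548 and 555 on the Control arrays. The BPA arrays lay above all Control arrays, with a difference of 0.53 ± 0.15 (adjusted p = 0.459). Its second probe set, 1426732_at, was dim, between 41.2 and 86.6, and gave 0.17 ± 0.24. Desmin is also made by skeletal muscle, so this gene alone does not mark the smooth muscle lineage.

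Myocd, myocardin, the coactivator, was lower at E18 than at E17 in Control tissue like the other members, but it had its lowest signals with BPA at P0. Probe set 1425978_at read 1431, 912 and 429 on the BPA arrays, 946, 866 and 727 on the DES arrays, and 971, 615 and 607 on the Control arrays. The BPA group thus held both the highest and the lowest of the 9 signals, at E17 and at P0, and the groups overlapped. Probe set 1425808_a_at likewise read 221, 144 and 52.5 on the BPA arrays, 124, 65.6 and 75.6 on the DES arrays, and 127, 111 and 95.1 on the Control arrays. BPA minus Control was 0.21 ± 0.22 (adjusted p = 0.863) and 0.11 ± 0.30 (adjusted p = 0.959). The BPA P0 array, which gives both lowest signals, is the dim array with gonad and epidermis signal, and the part of these in the Myocd values was not tested. In fits without that array the change of the BPA minus Control difference with age, given below, was still below 0 in both Myocd probe sets. Those fits take BPA from its E17 and E18 arrays alone.

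**Figure D2:**
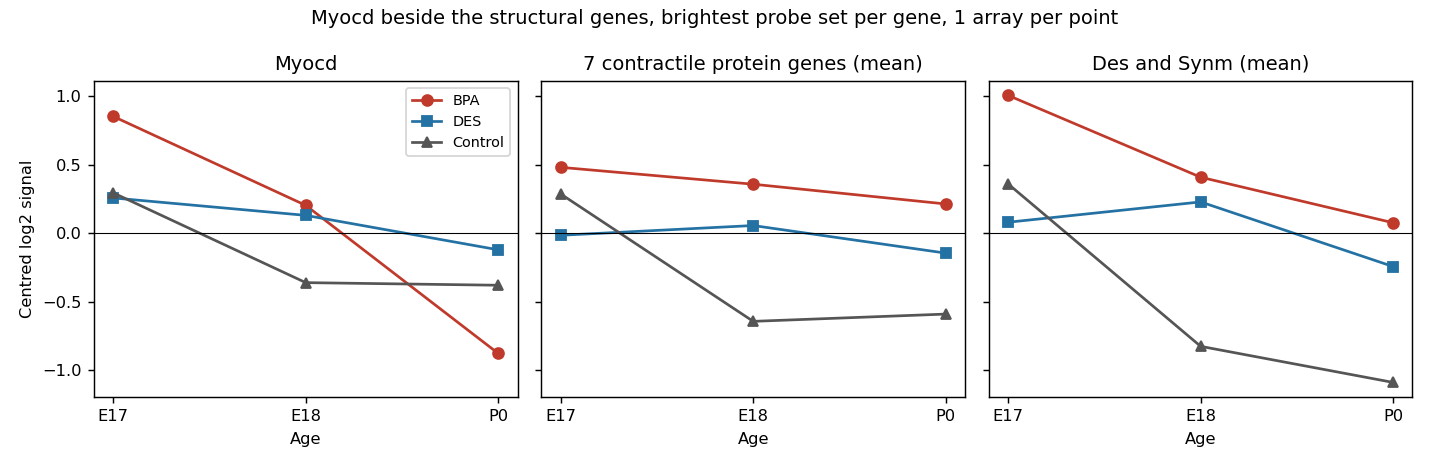
Centred log2 signal against age, 1 array per point, for Myocd (left), the mean of the 7 contractile protein genes (middle) and the mean of Des and Synm (right), each gene by its brightest probe set, with BPA in red, DES in blue and Control in grey. At P0 the BPA array has the lowest point for Myocd, at −0.88, and the highest for the contractile genes, at 0.21.

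Taken over the 16 probe sets, BPA minus Control was above 0 in 16, with a median of 0.66, where 49.0% of all tested probe sets were above 0 and their median was −0.00. No member had an adjusted p under 0.05 by limma, and neither did any other tested probe set (0% called). At an unadjusted p under 0.05, 10 of 16 members were higher, against 3.53% of all tested probe sets. The members were chosen with earlier results of these data known, and they moved together over the arrays. The counts here and below are therefore descriptions and no test of the members as a set. All 3 BPA arrays lay above all 3 Control arrays in 4 members, Cnn1, Des 1426731_at, Synm 1455610_at and Tagln, against 5.05% of all tested. This holds after normalisation only. In the values as deposited the dim BPA P0 array lay under Control E17 in each of these 4, as for Cnn1 at 1660 against 2214. Higher by at least 0.32 log2 units at each of the 3 ages were 6 members, both Synm probe sets, Cnn1, Lmod1, Des 1426731_at and Acta2 1444105_at, against 0.978% of all tested. The Control E17 array weighed on this: without it 3 members passed, Actg2 at 1.14 (adjusted p = 0.0173), Tagln at 0.91 (adjusted p = 0.0246) and Synm 1457275_at at 1.98 (adjusted p = 0.0413), with 7 probe sets called in all. The members' median was 0.88 without that array and 0.44 without Control E18.

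**Figure D3:**
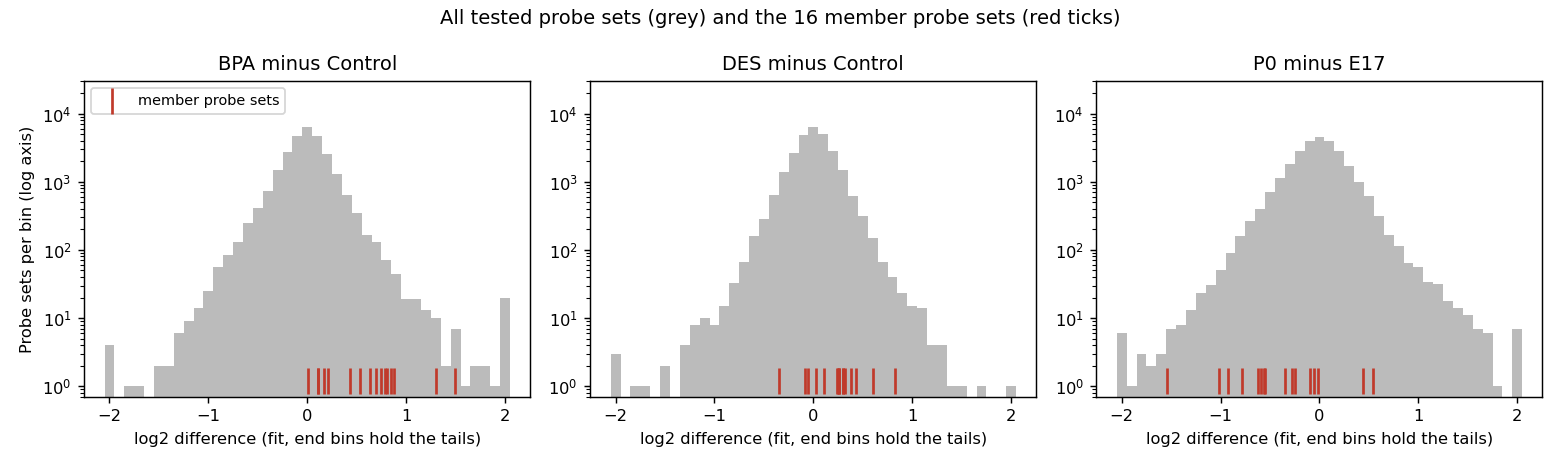
Number of tested probe sets, on a log axis, by log2 difference in bins of 0.1 (grey bars), with the end bins holding the tails and the 16 members as red ticks, for BPA minus Control, DES minus Control and P0 minus E17. For BPA minus Control the members all lie right of 0, between 0.01 and 1.50, and for P0 minus E17 most lie left of it, the lowest at −1.55.

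With DES, the members' differences from the same Control arrays were smaller in the median. DES minus Control was above 0 in 13 of 16 members, with a median of 0.26, where 50.8% of all tested were above 0. Single arrays moved this median: it was 0.08, with 11 of 16 above 0, without Control E18, 0.13 without DES E18, 0.42 without DES E17 and 0.50 without Control E17. Again 0 members and 0% of all tested were called, and at an unadjusted p under 0.05 the 2 Synm probe sets were higher, against 2.90% of all tested. DES and Control arrays overlapped in all 16 members, where every DES array was above every Control array in 5.87% of all tested, and 0 members were higher by 0.32 at each age, against 0.537% of all tested. BPA minus DES was above 0 in 14 of 16, with a median of 0.37 and a range from −0.09 to 0.90, and 0 members and 0% of all tested were called. The median was 0.17 without DES E17. At an unadjusted p under 0.05, 5 members were higher, against 3.39% of all tested. All 3 BPA arrays lay above all 3 DES arrays in 7 members, against 5.32%, and the single member higher by 0.32 at each age, Cnn1, compares with 0.667%. In the values as deposited the BPA and DES arrays overlapped in each of those 7. Both agents were set against the same 3 Control arrays, so the BPA and DES differences are not independent of each other.

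The difference from Control was not alike at the 3 ages. At E17, BPA minus Control had a median of 0.31 over the members, with 12 of 16 higher; at E18 the median was 0.92 with 16 higher, and at P0 it was 0.68 with 13 higher. For DES minus Control the median was −0.19 at E17, with 15 of 16 lower, 0.73 at E18 with 15 higher, and 0.32 at P0 with 12 higher. All tested probe sets had medians within 0.02 of 0 at each age. Each of these is 1 array against 1 array, with no replicate and no test. A linear change of the difference with age was tested over the 9 arrays, as a slope in log2 units per age step. For BPA the slope was above 0 in 13 of 16 members, led by Actg2 at 0.59 ± 0.16 (adjusted p = 0.478), and below 0 in both Myocd probe sets, at −0.53 ± 0.15 (adjusted p = 0.478) and −0.79 ± 0.26 (adjusted p = 0.504). For DES it was above 0 in 12 of 16, led by Synm 1457275_at at 0.96 ± 0.23 (adjusted p = 0.766). No slope was called in the members or in all tested (0% each). At an unadjusted p under 0.05, BPA slopes were higher in 3 members (3.42% of all tested) and lower in the 2 of Myocd (4.66%), and DES slopes were higher in 5 (3.37%). The members' median slopes turned on the Control arrays: the median BPA slope of 0.31 became −0.26 without Control E17 and 0.86 without Control P0, and the median DES slope of 0.27 became −0.14 and 0.80. The single slopes named above changed in size but kept their sign in every alternative. With BPA, Actg2 lay between 0.06 and 1.11, Myocd 1425978_at between −0.85 and −0.21 and Myocd 1425808_a_at between −1.17 and −0.40. With DES, Synm 1457275_at lay between 0.27 and 1.64.

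**Figure D4:**
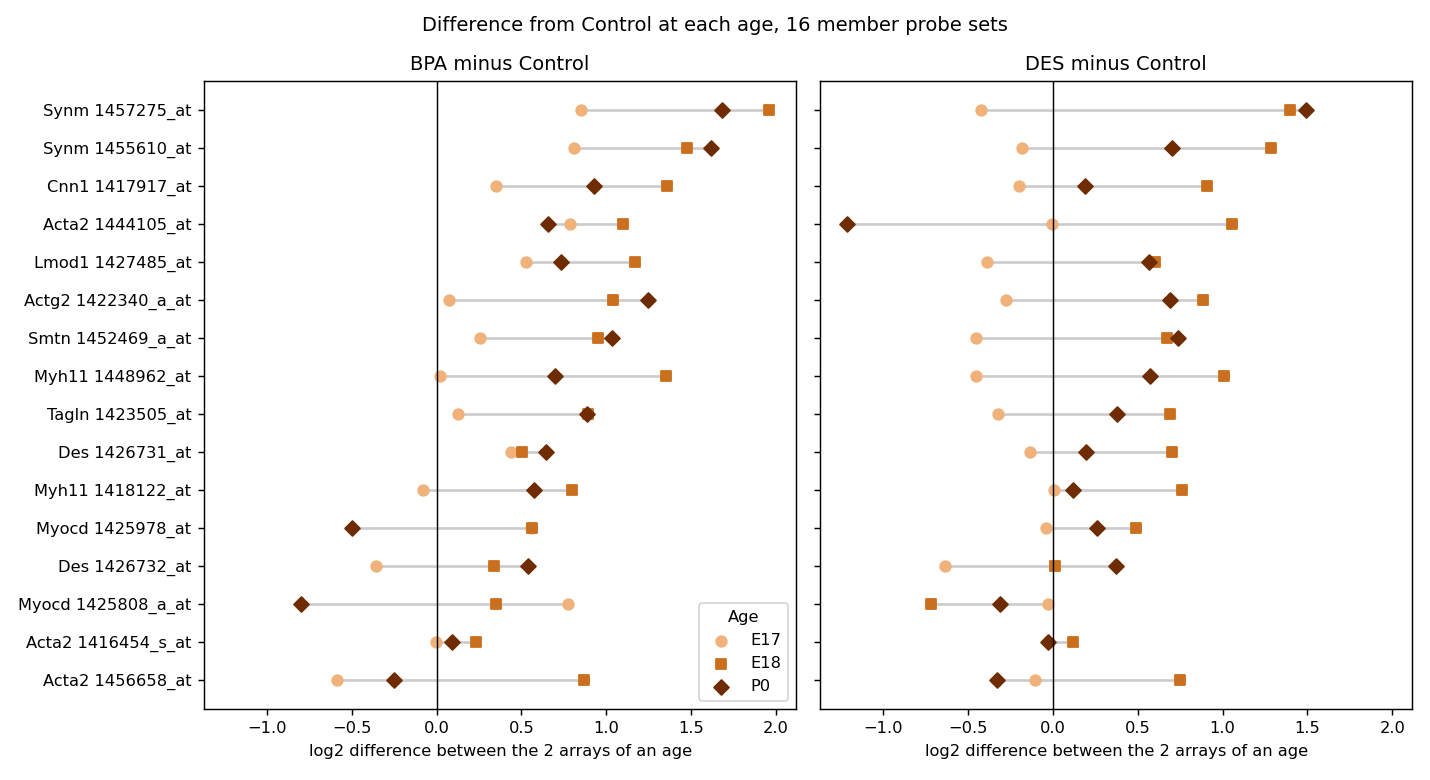
Log2 difference from the Control array of the same age for the member probe sets, BPA left and DES right, 1 array against 1 array at each age. The BPA medians are 0.31, 0.92 and 0.68 at E17, E18 and P0, and the DES medians −0.19, 0.73 and 0.32.

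With age, member signals were lower at the later stages, with the widest median gap in Control tissue. P0 minus E17, over the 3 agents, was below 0 in 14 of 16 members, with a median of −0.45, where 48.9% of all tested were above 0. The widest were Synm 1457275_at at −1.55 ± 0.30 (adjusted p = 0.0892), and Myocd at −0.93 ± 0.22 (adjusted p = 0.118) and −1.01 ± 0.30 (adjusted p = 0.163). No member was called by limma, where 25 probe sets, 0.0926% of all tested, were. At an unadjusted p under 0.05, 8 members were lower, against 9.27% of all tested. In 4 members, Myh11 1448962_at, both of Myocd and Synm 1457275_at, all 3 P0 arrays lay under all 3 E17 arrays, against 9.92% of all tested. Without the DES P0 array 3 members passed, Synm 1457275_at at −1.84 (adjusted p = 0.0221), Myocd 1425978_at at −1.11 (adjusted p = 0.0376) and Acta2 1444105_at at 1.08 (adjusted p = 0.0411), but 1601 probe sets passed in all. Without the Control E17 array the members' median was −0.17, with 5 of 16 above 0.

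E18 minus E17 was below 0 in 15 of 16 members, with a median of −0.31, which was −0.09 without Control E17, −0.13 without Control E18 and −0.52 without DES E17; 0 members and 0% of all tested were called, and 5 members were lower at an unadjusted p under 0.05, against 1.27% of all tested. P0 minus E18 had a median of −0.09, with 6 of 16 above 0, and 0 members and 0% of all tested called. At an unadjusted p under 0.05 in either direction there were 0 members, against 13.5% of all tested. Within single agents, the E18 array lay under the E17 array in 16 of 16 members in Control (median −0.83), in 12 with BPA (median −0.17) and in 6 with DES (median 0.02). P0 lay under E17 in 15 members in Control (median −0.67), in 11 with BPA (median −0.17) and in 14 with DES (median −0.20).

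The members moved together over the 9 arrays, which share agents and ages. Of 120 pairs of member probe sets, 113 had a positive Pearson correlation, with a median of 0.62 and a range from −0.54 to 0.97. Actg2 and Tagln had the closest, at 0.97, and Cnn1 and Tagln 0.96. The correlation of Myocd 1425978_at with the mean of the other members was 0.53, and with single genes it ran from 0.74 with Synm 1457275_at, 0.66 with Lmod1 and 0.63 with Myh11 1448962_at, through 0.47 with Actg2 and 0.39 with Cnn1, to −0.54 with the dim Des 1426732_at. The other Myocd probe set had 0.28 with the mean of the others, and the Myocd probe sets had 0.80 with each other. The mean of the 16 centred log2 signals was 0.52, 0.32 and 0.15 on the BPA arrays at E17, E18 and P0, 0.00, 0.05 and −0.19 on the DES arrays, and 0.23, −0.62 and −0.46 on the Control arrays.

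The 10 other probe sets that followed that mean most closely over the 9 arrays had correlations of 0.95 to 0.99, where the median over all tested was −0.01 and the 99th percentile 0.80. Tns1 led at 0.99, tensin, which ties actin to focal adhesions, followed by Klhl23 at 0.98 and the 2 probe sets of Tpm2, beta-tropomyosin, at 0.98. Synpo2, an actin-binding protein of smooth muscle dense bodies, had 0.97, both probe sets of Tnnt2, a troponin T best known from heart, had 0.97 and 0.96, and Ppp1r12b, a subunit of myosin phosphatase, had 0.95. Ecrg4 and Plin4, a lipid droplet protein, had 0.97 and 0.96. For BPA minus Control these 10 lay between 0.28 and 0.91, none of them called. They were picked for following the members' mean, which was higher on the BPA than on the Control array at each age. Their direction therefore follows from the choice.

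Other genes of the smooth muscle apparatus leaned the same way by less. Among 18 other contractile and calcium-handling genes, BPA minus Control was above 0 in 16, with a median of 0.28, and P0 minus E17 was below 0 in 15. Ppp1r14a, an inhibitor of myosin phosphatase, read 748, 690 and 567 on the BPA arrays, 657, 628 and 561 on the DES arrays, and 602, 372 and 338 on the Control arrays, a BPA difference of 0.64 ± 0.14 (adjusted p = 0.33). Hspb6, a small heat shock protein of smooth muscle relaxation, differed by 0.59 ± 0.17 (adjusted p = 0.459). For P0 minus E17, Kcnmb1, a potassium channel subunit, stood at −0.67 ± 0.20 and Casq2, a calcium store protein shared with striated muscle, at 0.98 ± 0.15 (adjusted p = 0.0557).

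Of 20 actin-anchoring and adhesion genes, BPA minus Control was above 0 in 19, with a median of 0.28. Itga1, a collagen receptor, had 0.53 ± 0.16, and Synpo2 0.48 ± 0.12 (adjusted p = 0.41). Pgm5, aciculin, a protein of adhesion plaques, had −0.62 ± 0.15 for P0 minus E17 (adjusted p = 0.12) and Itga5, a fibronectin receptor, −0.50 ± 0.20. None of these genes was called in any comparison.

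The regulators and receptors did not lean with the members. Of 14 transcriptional regulators of smooth muscle, 8 were above 0 for BPA minus Control and the median was 0.01. The widest were Gata4 at 0.55 ± 0.42, which rests on the BPA P0 array at 228, against 34.6 to 63.2 on the other 8 arrays, and Mef2c at −0.35 ± 0.17. Heyl, a Notch target, had 0.48 ± 0.14 for P0 minus E17.

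Of 9 receptors and second messenger enzymes, 5 were above 0, with a median of 0.01. P2rx1, the ATP receptor through which nerves contract bladder and vas deferens muscle, was the exception among them. It read 419, 333 and 243 on the BPA arrays, 204, 223 and 176 on the DES arrays, and 301, 100 and 46.1 on the Control arrays. Its BPA minus Control difference was 1.47 ± 0.35 (adjusted p = 0.394), and P0 minus E17 was −1.18 ± 0.35. Tacr2, a tachykinin receptor, had 0.20 for BPA minus Control, and Htr2b, a serotonin receptor, 0.83 ± 0.27 for P0 minus E17. None of the regulators or receptors was called.

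**Figure D5:**
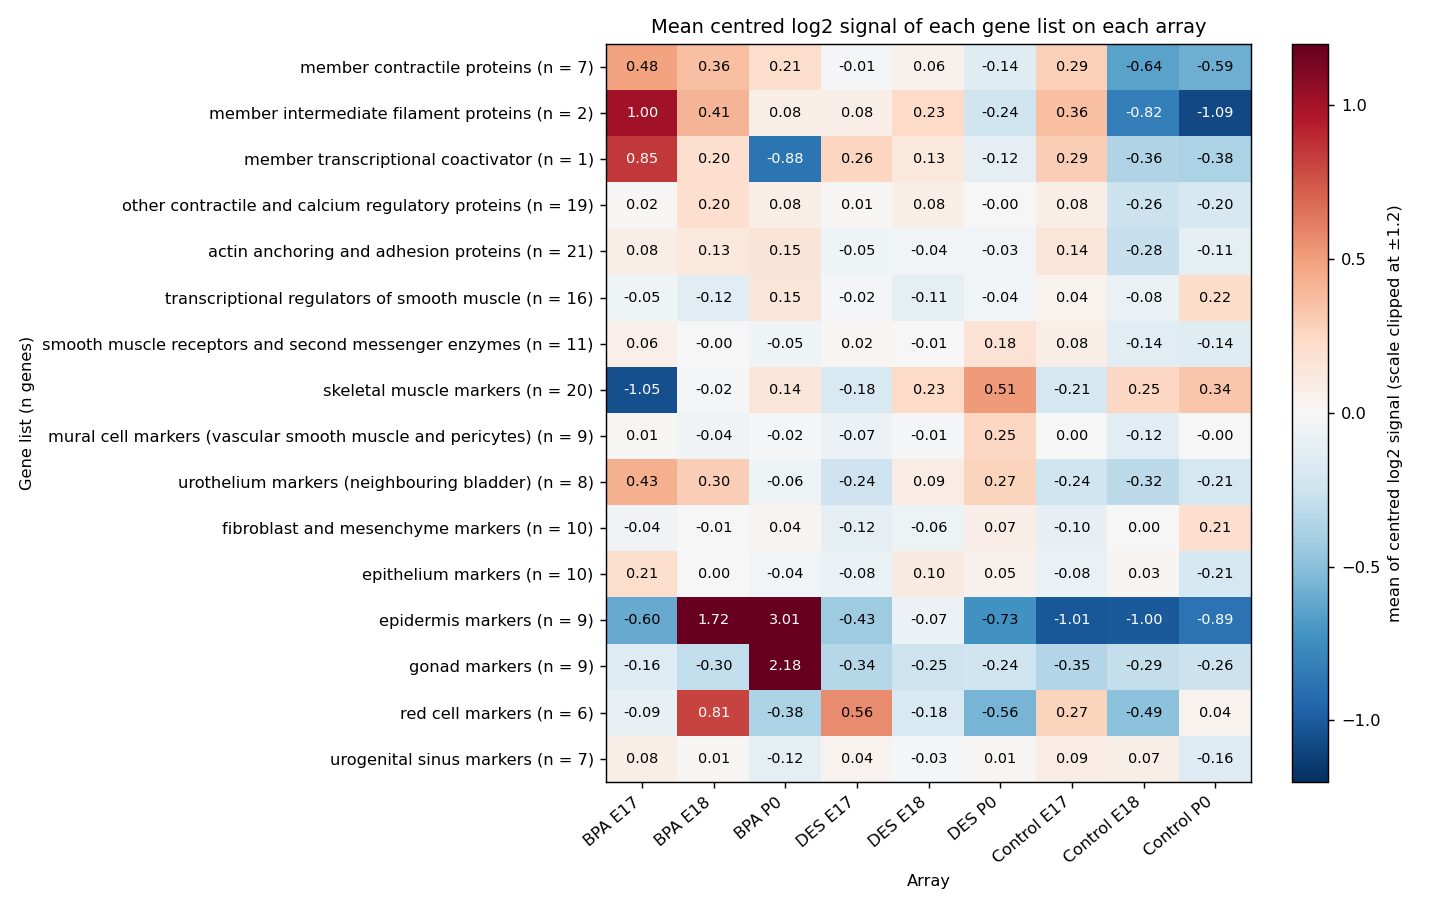
Mean centred log2 signal of gene lists (down the page, all genes on the array, tested or not) on the 9 arrays (across), with colours clipped at 1.2 log2 units either way. The contractile and intermediate filament members are highest on BPA E17, at 0.48 and 1.00, and lowest on Control E18 and P0, the skeletal muscle list is lowest on BPA E17, at −1.05, and the mural cell list stays between −0.12 and 0.25.

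Other cell types of the region were measured beside the members. Of 9 mural cell markers, which mark vascular smooth muscle and pericytes, 5 were above 0 for BPA minus Control, with a median of 0.01. Their summed signal was 7869 to 8313 on the BPA arrays, 8184 to 9824 on the DES arrays and 7800 to 8661 on the Control arrays. Of 10 fibroblast and mesenchyme markers, 2 were above 0 (median −0.04), and of 10 epithelial markers 8 (median 0.15). The vascular and fibroblast lists thus had medians close to 0 where the members had 0.66.

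Urothelial markers, of the lining of the neighbouring bladder, also lay above Control with BPA, and their course over age was like that of the members in part. All 8 of 8 were above 0 for BPA minus Control, with a median of 0.52, and none was called. Their BPA slope with age was below 0 in 8 of 8, with a median of −0.27, and their E18 minus E17 median was 0.03, against 0.31 and −0.31 in the members. Without the Control E17 array the members had −0.26 and −0.09, and the urothelial values were not computed. The DES slope was above 0 in 8 of 8 urothelial markers, with a median of 0.19, against 0.27 in the members. The summed urothelial signal was 9862, 8512 and 7083 on the BPA arrays at E17, E18 and P0, 6461, 7922 and 8403 on the DES arrays, and 6393, 6273 and 6301 on the Control arrays. The part of bladder tissue in the members' values was not tested. Epidermis markers were above 0 in 9 of 9, with a median of 2.16, and their summed signals are given above. The part of epidermal tissue in the members' values was not tested.

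Skeletal muscle markers ran the other way for BPA minus Control and for P0 minus E17, but not in the BPA slope with age. Of 20, 18 were below 0 for BPA minus Control, with a median of −0.51, and 17 were above 0 for P0 minus E17, with a median of 0.89. Their summed signal was 18495, 25945 and 26372 on the BPA arrays at E17, E18 and P0, 23520, 28290 and 32321 on the DES arrays, and 24574, 26511 and 26883 on the Control arrays. For P0 minus E17, 4 of them rose by the limma test, among them Myh8, perinatal myosin, by 2.39 (adjusted p = 0.00755), where the members had a median of −0.45. The BPA slope with age was above 0 in 19 of the 20 skeletal muscle markers, with a median of 0.32, against 0.31 in the members. Without the Control E17 array the members had −0.26, and the skeletal muscle value was not computed. On the BPA arrays themselves the courses differed. Mean centred log2 signals at E17, E18 and P0 were −1.05, −0.02 and 0.14 for the skeletal muscle list and 0.52, 0.32 and 0.15 for the members. DES minus Control was above 0 in 14 of the 20, with a median of 0.04.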

How the data were processed

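RNA from 9 urogenital sinus samples was hybridised to 1 Affymetrix array each. Per the submitters' processing notes MAS5 made the deposited intensity values, which are linear and differ in overall brightness from array to array. The MAS5 version and its scaling target are not given in the sources used here. Signals were quantile normalised with limma 3.58.1 in R 4.3.3 and taken as log2(signal + 5.46), so differences of dim probe sets are understated. The 64 array control probe sets were left out. Probe sets with a mean log2 value at or above the 40th percentile (5.54) were tested, 26999 in all. The annotation gave 1 gene symbol for 34958 probe sets, several for 932, and listed none for 9211.

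Agent and age were factors in limma (lmFit, then eBayes with an intensity trend), with 4 residual and 5.77 prior degrees of freedom. The slope model with an agent by linear age term left 3 residual degrees of freedom, not the smaller number written in the plan. P-values were adjusted by Benjamini-Hochberg over all tested probe sets, with a threshold of 0.05. The script was tested on simulated data. Named genes of other lists are those past the threshold, and otherwise the 2 widest for BPA minus Control and for P0 minus E17, 1 probe set per gene; the genes most like the members are the 10 with the highest correlation with their mean. The members and lists were chosen with earlier results of these data known, and the counts of groups that do not overlap were added after the values were seen. Arrays give no count depth, so their number limits the precision.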

Additional observations from a re-analysis of the deposited data

Results flagged for a closer look

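Some member probe sets had differences from Control that pointed in opposite directions at different ages. Each value here is 1 array against 1 array, and the difference between the ages was not tested in that form. The linear age slopes were tested, and limma called 0 of them among the members. For BPA minus Control, Myocd 1425808_a_at had 0.78 at E17 and −0.80 at P0, and Myocd 1425978_at had 0.56 at E18 and −0.50 at P0. The dim probe sets Acta2 1456658_at and Des 1426732_at did so in the other order, with 0.87 at E18 and −0.59 at E17 for Acta2 and 0.54 at P0 and −0.35 at E17 for Des.

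For DES minus Control, most of these were below 0 at E17 and above it later. Myh11 1448962_at had 1.01 at E18 and −0.45 at E17, and Lmod1 had 0.60 at E18 and −0.39 at E17. Synm 1457275_at had 1.49 at P0 and −0.42 at E17, and Smtn had 0.74 at P0 and −0.45 at E17. Des 1426732_at had 0.37 at P0 and −0.63 at E17. The dim Acta2 probe sets went the other way at birth, 1444105_at with 1.05 at E18 and −1.21 at P0 and 1456658_at with 0.75 at E18 and −0.33 at P0.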

How the results depend on the processing

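The median member difference for BPA minus Control lay between 0.44 and 0.88 over 19 alternatives, and that for DES minus Control between 0.08 and 0.50, both lowest without the Control E18 array. Over 18 alternatives the median for E18 minus E17 lay between −0.52 and −0.09 and that for P0 minus E17 between −0.69 and −0.17, both nearest 0 without the Control E17 array. With the values as deposited, where all tested probe sets had a median of −0.24 for BPA minus Control and −0.29 for P0 minus E17, the median was 0.079 for BPA minus DES, −0.26 for P0 minus E18 and −0.030 for the BPA slope. In that setting 5 members were called for P0 minus E17 among 392 probe sets in all, 2 members were higher by 0.32 log2 units at each age for BPA against Control, and 0 for BPA against DES. The share of all tested probe sets higher by that much at each age was not computed for the deposited values. With the arrays of BPA P0 and DES E17 both dropped, the BPA minus DES median was 0.067. Leaving out each array in turn gave 0 to 3 members called for BPA minus Control and 0 to 3 for P0 minus E17. It gave medians of −0.25 to 0.10 for P0 minus E18, −0.26 to 0.86 for the BPA slope and −0.14 to 0.80 for the DES slope. With 1 probe set per gene, 83 were called for P0 minus E17, with no filter 7 and without an intensity trend 0, none of them members; the cause of these shifts was not tested. Leaving out BPA E18 with BPA P0, and age as a factor in the slope model, were chosen after seeing the data. The first gave a BPA minus Control median of 0.61, with BPA then 1 array, at E17, assumed to vary like the other groups, and age effects taken from DES and Control; the E17 arrays alone had a median of 0.31. Arrays were matched by age, which was a factor in every agent comparison, and dropping it left 0 members called.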

Other observations

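Of the 20 skeletal muscle markers, the 2 above 0 for BPA minus Control were Acta1, skeletal actin, and Ckm, muscle creatine kinase, named here after their values were seen. Acta1 read 7771, 7128 and 6140 on the BPA arrays at E17, E18 and P0, 6334, 6624 and 6056 on the DES arrays, and 7366, 4670 and 4216 on the Control arrays. Its difference was 0.41 ± 0.12 for BPA minus Control and −0.40 ± 0.12 for P0 minus E17, the direction of the smooth muscle members in both. Ckm read 1040, 823 and 640 on the BPA arrays, 514, 745 and 665 on the DES arrays, and 817, 367 and 467 on the Control arrays, a BPA minus Control difference of 0.65 ± 0.25. Neither gene was called by limma. The Acta1 probes lie in a gene whose coding sequence is nearly that of Acta2 and Actg2, and whether transcripts of those genes add to its signal was not tested.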
